A study of Mus musculus with 12 samples.

Results

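Voltage-gated sodium and calcium channel genes were taken as every symbol of the tables that begins with Scn, a number and the letter a or b, or with Cacna, Cacnb or Cacng, with the striatal gene Scn4b left out. This gave 38 of 23183 symbols. They comprise 12 sodium channel genes and 26 calcium channel genes, or 19 genes of pore-forming subunits and 19 of auxiliary subunits. The sodium channel gene Scn2a is listed under its older symbol Scn2a1, which that rule does not take, so its values are given beside the members. The RNA-seq libraries come from 6 male mice of the C57BL/6 strain and from 2 regions of each brain, hippocampus and prefrontal cortex. 3 mice had X-ray irradiation of the abdomen, at 13 Gy per the library names, and were sampled in the chronic phase of the intestinal injury. The sources used here give no exact time, and the injury itself was not measured in these files. The other 3 mice were not irradiated and are called controls below. Each mouse gave 1 library per region, so there were 3 libraries in each of 4 groups, and the 2 regions of a treatment come from the same mice.

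Voltage-gated channels open when the membrane depolarizes. Sodium channels carry the upstroke of the action potential, and calcium channels turn that voltage signal into calcium entry, which releases transmitter at synapses and drives signalling in dendrites. Each channel is built around 1 large pore protein. Small beta subunits anchor and tune sodium pores, whereas calcium pores of the high-voltage classes carry an extracellular alpha2delta and an intracellular beta subunit. Most brain members of the calcium gamma family act mainly as TARPs, the transmembrane proteins that carry AMPA-type glutamate receptors to synapses and slow their gating.

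Levels are given in FPKM, the fragments per kilobase of transcript relative to all mapped fragments of a library. Over the 12 libraries, 27 members averaged 1 FPKM or more, 5 averaged between 0.1 and 1 FPKM and 6 averaged less. Scn8a, the pore of the axon initial segment, had 38.8, 44.8 and 36.9 FPKM in hippocampus of irradiated mice, 35.2, 35.3 and 41.1 FPKM in hippocampus of controls, 39.9, 51.1 and 41.7 FPKM in prefrontal cortex of irradiated mice and 48.8, 39.6 and 35.3 FPKM in prefrontal cortex of controls. All 4 groups of this sodium pore overlapped. Over 12 libraries Scn2a, listed as Scn2a1, averaged 47.5 FPKM and Scn8a 40.7 FPKM.

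The sodium pores split by tissue. Scn8a, Scn1a (chromosome 2, 66270778 to 66440840) and Scn3a averaged 40.7, 17.7 and 5.89 FPKM over the 12 libraries. Scn7a, a sodium-sensing relative, averaged 0.858 FPKM, and Scn9a of peripheral sensory neurons averaged 0.325 FPKM. Scn10a and Scn11a, further pores of sensory neurons, and Scn4a of skeletal muscle lay at 0.0437, 0.0224 and 0.00325 FPKM. Scn4a was listed at 0 in 9 of 12 libraries and Scn10a in 4. All 10 calcium pore genes were listed, and 8 of them averaged 1 FPKM or more. Those below were Cacna1s, the skeletal muscle pore, at 0.0845 FPKM and Cacna1f, the photoreceptor pore, at 0.0103 FPKM. Among auxiliary genes the low members were Cacng6 at 0.282 FPKM, the mainly retinal Cacna2d4 at 0.239 FPKM, and Cacng1, the gamma subunit of the muscle channel. Cacng1 was listed at 0 in all 6 hippocampal libraries and at 0.0499 to 0.297 FPKM in the 6 libraries of prefrontal cortex.

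**Figure D1:**
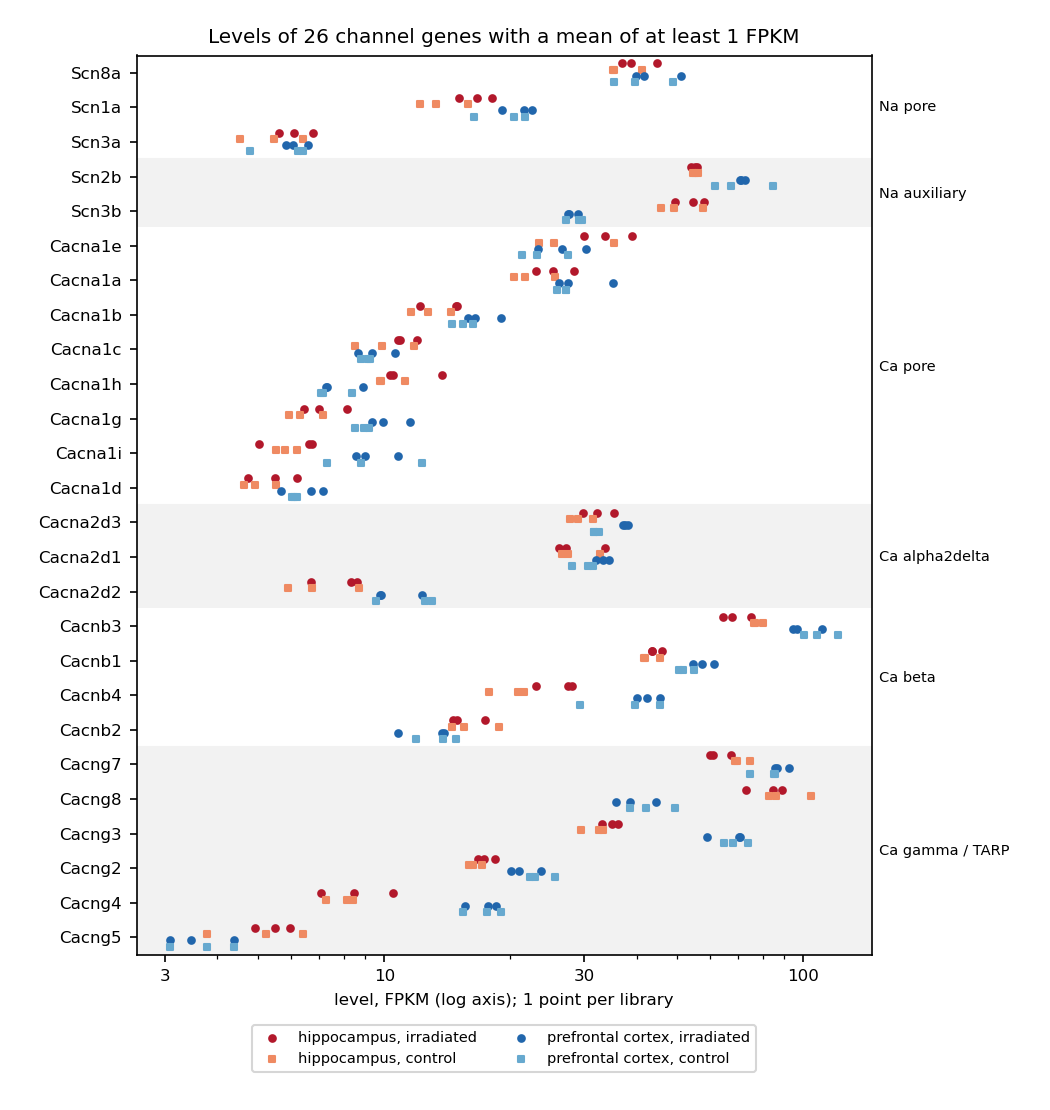
Level of 26 of the 27 channel genes that averaged 1 FPKM or more, 1 point per library on a log axis in FPKM, with red shades for hippocampus, blue shades for prefrontal cortex, circles for irradiated mice and squares for controls. Points of the 4 groups mix for Scn8a, while Cacng8, Scn3b, Cacng3 and Cacng4 show red and blue points apart.

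The first question was how the regions differ. Differences were taken on log2(FPKM + 1) with limma-trend over all genes that averaged 1 FPKM or more in the fitted libraries, and adjusted p-values below are Benjamini-Hochberg values from these fits with a threshold of 0.05. In irradiated mice 17 of 27 tested members passed, 4 higher and 13 lower in hippocampus than in prefrontal cortex, where 29.2% of all 12878 genes tested passed, 13.9% higher and 15.3% lower. In control mice 14 of 27 passed, 3 higher and 11 lower, where 30.3% of all 12923 genes tested passed, 15.7% higher and 14.6% lower. The median log2 difference over the 27 members was -0.21 in irradiated and -0.24 in control mice, against 0 and 0.01 over all genes. All 14 members called in controls were called in irradiated mice in the same direction, which are 82.4% of the 17 calls there, and 10 members were called in neither. With the mouse as a replicate block, since both regions come from the same animals, the counts were 7 higher and 16 lower in irradiated mice and 5 higher and 12 lower in controls, and no call was lost. Within the channels, 4 of 11 tested pore genes and 13 of 16 auxiliary genes passed in irradiated mice, and 4 of 11 and 10 of 16 in controls.

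Marker genes of the tissue differed between the regions as well. The summed level of 7 striatal markers lay between 59.2 and 99.1 FPKM in hippocampus, against between 699.8 and 744 FPKM in prefrontal cortex of irradiated mice, and between 89.8 and 111 FPKM and between 678 and 874 FPKM in controls; all 7 markers passed as lower in hippocampus in both treatments. The sum of 5 choroid plexus markers lay between 61.6 and 4595 FPKM in hippocampus, against between 2.39 and 3.97 FPKM in prefrontal cortex of irradiated mice, and between 3703 and 5792 FPKM and between 2.87 and 62.1 FPKM in controls. Of 8 general neuron markers, 4 passed as lower in hippocampus in irradiated mice and 5 as lower and 1 as higher in controls, with medians of -0.29 and -0.28. Of 7 markers of GABA neurons, 4 and 3 passed as lower, with medians of -0.32 and -0.29. Among all genes tested, 15.3% passed as lower in irradiated mice and 14.6% in controls. All markers named in these 4 lists were above 0 in every group. In bulk tissue fewer cells of a type and less RNA per cell cannot be told apart, and the part of cell composition in the channel differences was not tested.

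**Figure D2:**
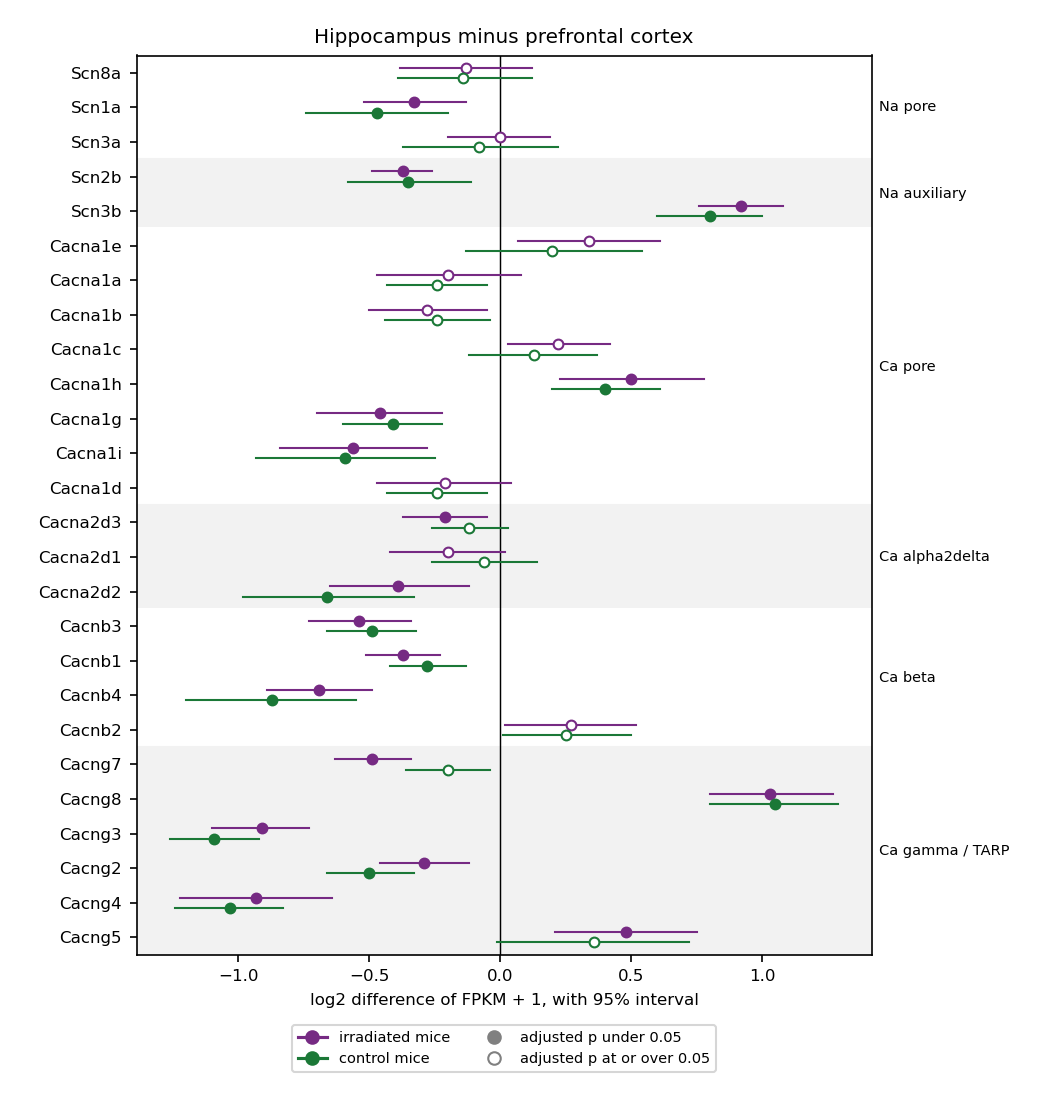
Log2 difference of FPKM + 1, hippocampus minus prefrontal cortex, with its 95% interval for 26 of the 27 tested channel genes, in irradiated mice (purple) and control mice (green). Filled points passed an adjusted p of 0.05; Cacng8 and Scn3b lie farthest to the right and Cacng3 and Cacng4 farthest to the left in both.

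Among the sodium pores, Scn1a, the pore on which many inhibitory interneurons depend, fell in hippocampus in both treatments. In irradiated mice Scn1a had 16.6, 18.1 and 15.1 FPKM in hippocampus, against 19.1, 22.5 and 21.5 FPKM in prefrontal cortex. In controls it had 12.2, 13.3 and 15.8 FPKM in hippocampus, against 16.4, 21.7 and 20.4 FPKM in prefrontal cortex. No hippocampal library reached a cortical one of the same treatment, and the log2 differences were -0.33 ± 0.09 (SE, adjusted p = 0.0241) and -0.47 ± 0.12 (adjusted p = 0.0157). The call was lost in irradiated mice without hippocampal library 1 or 3 or cortical library 2 or 3, and in controls without hippocampal library 1 or 2 or cortical library 2 or 3. Scn8a and Scn3a did not pass in either treatment, at -0.13 ± 0.11 and 0 ± 0.08 in irradiated and -0.14 ± 0.11 and -0.08 ± 0.13 in control mice. Scn2a, listed as Scn2a1, differed by -0.29 ± 0.07 (adjusted p = 0.0117) in irradiated and -0.32 ± 0.08 (adjusted p = 0.0175) in control mice.

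Sodium beta subunits passed in both directions. Scn3b (chromosome 9, 40269217 to 40291618), a neuronal beta subunit, was higher in hippocampus. In irradiated mice it had 49.3, 58 and 54.5 FPKM in hippocampus, against 27.6, 27.5 and 29 FPKM in prefrontal cortex. In controls Scn3b had 49.1, 45.8 and 57.5 FPKM in hippocampus, against 27.1, 29.2 and 29.6 FPKM in prefrontal cortex. Every hippocampal library lay above every cortical one, with log2 differences of 0.92 ± 0.07 (adjusted p = 6.19e-05) and 0.80 ± 0.09 (adjusted p = 0.000136). Scn2b, which pairs covalently with the pore, was lower, by -0.37 ± 0.05 (adjusted p = 0.00109) in irradiated and -0.35 ± 0.10 (adjusted p = 0.0327) in control mice. Its means were 54.9 ± 1.05 FPKM in hippocampus, against 71.4 ± 1.17 FPKM in prefrontal cortex of irradiated mice and 55.2 ± 0.752 FPKM and 71.2 ± 12.1 FPKM in controls (SD, n = 3 each). In controls that call was lost without any one of the hippocampal libraries and with no filter on low values.

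The calcium pores of the high-voltage classes did not pass in either treatment. These are Cacna1a of P/Q-type and Cacna1b of N-type channels, which trigger transmitter release, Cacna1c and Cacna1d of L-type channels and Cacna1e of R-type channels. Their log2 differences ran from -0.28 to 0.34 in irradiated and from -0.24 to 0.20 in control mice. Cacna1e, the highest calcium pore in hippocampus by group means and below Cacna1a in prefrontal cortex, had 33.6, 38.9 and 30 FPKM in hippocampus, against 23.3, 30.3 and 26.6 FPKM in prefrontal cortex of irradiated mice, and 23.4, 25.4 and 35.4 FPKM, against 21.3, 27.5 and 23.2 FPKM, in controls. The regions overlapped in both treatments. With the mouse as a block, Cacna1a, Cacna1b, Cacna1c, Cacna1d and Cacna1e were all called in irradiated mice and none of them in controls. Other settings also gave calls. In controls Cacna1a was called with the length trend removed, and Cacna1a, Cacna1b and Cacna1d without hippocampal library 3. In irradiated mice Cacna1b, Cacna1c and Cacna1e were called with the length trend removed, and Cacna1b in 1 fit over 12 libraries. Cacna1e was called there without hippocampal library 3, and Cacna1c and Cacna1e without cortical library 2. For these high-voltage pores the change of the region difference with irradiation ran from -0.04 to 0.14. None of these changes passed, with or without the block.

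The T-type pores, which open near the resting potential and support burst firing, all passed in both treatments but not in 1 direction. Cacna1h was higher in hippocampus. It had 10.3, 13.7 and 10.5 FPKM in hippocampus, against 7.29, 8.89 and 7.25 FPKM in prefrontal cortex of irradiated mice, and 9.83, 9.79 and 11.2 FPKM, against 8.39, 7.07 and 7.14 FPKM, in controls. The libraries did not overlap and the log2 differences were 0.50 ± 0.12 (adjusted p = 0.016) and 0.40 ± 0.09 (adjusted p = 0.00873). Without cortical library 1 or 3 of the irradiated mice the call there was lost, at adjusted p-values of 0.0604 and 0.0565. Cacna1i was lower in hippocampus, with 6.62, 6.71 and 5.03 FPKM, against 9.01, 10.8 and 8.58 FPKM in prefrontal cortex of irradiated mice, and with 5.51, 5.8 and 6.18 FPKM, against 12.3, 8.81 and 7.29 FPKM, in controls. Its libraries did not overlap either, at -0.56 ± 0.12 (adjusted p = 0.0102) and -0.59 ± 0.15 (adjusted p = 0.017). In controls its call was lost without hippocampal library 1 or 2, at 0.0595 and 0.0523. Cacna1g was lower by -0.46 ± 0.10 (adjusted p = 0.0123) and -0.41 ± 0.09 (adjusted p = 0.00571). Cacna1h made up 43.2% to 48% of the summed T-type level per library in hippocampus and 27.8% to 28.8% in prefrontal cortex of irradiated mice, and 44.8% to 46.2% and 28% to 31.1% in controls. The T-type set was chosen after values had been seen, and Cacna1h overlaps Tpsg1 on the opposite strand, so its fragments could be shared if the authors' counting ignored strand.

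Of the alpha2delta subunits, which carry calcium channels to the cell surface, Cacna2d2 was lower in hippocampus. It had 8.35, 6.7 and 8.63 FPKM in hippocampus, against 9.79, 9.84 and 12.3 FPKM in prefrontal cortex of irradiated mice, and 5.88, 8.72 and 6.71 FPKM, against 9.58, 12.5 and 13 FPKM, in controls. Hippocampal libraries all lay below cortical ones, with log2 differences of -0.39 ± 0.12 (adjusted p = 0.0378) and -0.66 ± 0.15 (adjusted p = 0.00818). In irradiated mice the call was lost without hippocampal library 1 or 2 or cortical library 1 or 3, with no filter on low values and in 1 fit over 12 libraries. Cacna2d3, the highest gene of this class, had 32.1, 35.3 and 29.8 FPKM in hippocampus, against 37.6, 38.1 and 37.1 FPKM in prefrontal cortex of irradiated mice, and 29, 27.8 and 31.5 FPKM, against 31.6, 31.6 and 32.5 FPKM, in controls. No libraries overlapped, yet Cacna2d3 passed in irradiated mice only by a narrow margin, at -0.21 ± 0.07 (adjusted p = 0.0499), and not in controls, at -0.12 ± 0.07 (adjusted p = 0.227). The irradiated call was lost with a pseudocount of 0.1, with no filter on low values, with either rescaling of the libraries, with robust moderation, with the length trend removed and without any library but hippocampal library 2. Cacna2d1, a target of gabapentin, did not pass in either treatment, at -0.20 ± 0.09 and -0.06 ± 0.09.

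The calcium beta subunits bring the pore to the membrane and set its gating, and 3 of 4 were lower in hippocampus. Cacnb4 (chromosome 2, 52428320 to 52676831) had 27.5, 28 and 23 FPKM in hippocampus, against 40, 45.6 and 42.4 FPKM in prefrontal cortex of irradiated mice, and 17.8, 20.9 and 21.6 FPKM, against 29.3, 45.4 and 39.7 FPKM, in controls. Its log2 differences were -0.69 ± 0.09 (adjusted p = 0.000836) and -0.87 ± 0.14 (adjusted p = 0.0016). Cacnb3, the highest of the class, had 64.4, 67.4 and 75.1 FPKM in hippocampus, against 94.5, 111 and 96.6 FPKM in prefrontal cortex of irradiated mice, and 80.2, 76.5 and 76.4 FPKM, against 121, 108 and 100.3 FPKM, in controls. Both genes kept hippocampal and cortical libraries apart, and for Cacnb3 the log2 differences were -0.54 ± 0.08 (adjusted p = 0.00225) and -0.49 ± 0.08 (adjusted p = 0.00106). Cacnb1 was lower by -0.37 ± 0.06 (adjusted p = 0.00297) and -0.28 ± 0.06 (adjusted p = 0.0106), a call lost in controls without hippocampal library 2. Cacnb2 did not pass, at 0.27 ± 0.11 (adjusted p = 0.0956) and 0.25 ± 0.11 (adjusted p = 0.113), and with the mouse as a block it was called higher in hippocampus in both treatments.

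The gamma family held the widest region differences. Cacng8 (chromosome 7, 3390683 to 3415648), the TARP best known from hippocampal AMPA receptors, was higher in hippocampus. It had 72.8, 88.9 and 84.4 FPKM in hippocampus, against 35.7, 44.6 and 38.5 FPKM in prefrontal cortex of irradiated mice, and 85.9, 82.7 and 104 FPKM, against 49.5, 38.5 and 42.2 FPKM, in controls. The lowest hippocampal library stood above the highest cortical one, and the log2 differences were 1.03 ± 0.10 (adjusted p = 0.000232) and 1.05 ± 0.11 (adjusted p = 0.000101). Cacng3 (chromosome 7, 122670492 to 122769393), a further TARP of forebrain neurons, was lower. It had 35, 36.1 and 33.1 FPKM in hippocampus, against 58.8, 70.5 and 70.1 FPKM in prefrontal cortex of irradiated mice, and 29.4, 33.3 and 32.6 FPKM, against 73.7, 67.8 and 64.6 FPKM, in controls. These groups were again apart, at -0.91 ± 0.08 (adjusted p = 0.000135) and -1.09 ± 0.07 (adjusted p = 7.59e-06).

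Cacng4 (chromosome 11, 107732357 to 107794557), a TARP also found in glia, followed the direction of Cacng3. It had 7.07, 8.49 and 10.5 FPKM in hippocampus, against 17.7, 18.5 and 15.6 FPKM in prefrontal cortex of irradiated mice, and 8.4, 7.27 and 8.14 FPKM, against 17.6, 15.4 and 19 FPKM, in controls. The libraries did not overlap, with log2 differences of -0.93 ± 0.13 (adjusted p = 0.00122) and -1.03 ± 0.09 (adjusted p = 3.8e-05). Cacng2, or stargazin, had 16.7, 17.3 and 18.4 FPKM in hippocampus, against 20.1, 23.7 and 21 FPKM in prefrontal cortex of irradiated mice, and 16.3, 15.9 and 17.1 FPKM, against 25.5, 22.9 and 22.3 FPKM, in controls. It was lower in every hippocampal library, by -0.29 ± 0.07 (adjusted p = 0.0215) and -0.50 ± 0.07 (adjusted p = 0.000813), and in irradiated mice the call was lost without hippocampal library 1 or 2. Cacng8 alone made up 55.3% to 59% of the summed Cacng2, Cacng3, Cacng4 and Cacng8 level per library in hippocampus and 26.5% to 28.4% in prefrontal cortex of irradiated mice, and 59.4% to 64.2% and 26.6% to 29.8% in controls. The share of Cacng3 was 22.6% to 26.6% in hippocampus and 44.4% to 48.3% in prefrontal cortex of irradiated mice, and 20.2% to 23.9% and 43.6% to 46.9% in controls. These sums were formed after values had been seen, and a share within a library does not depend on how libraries are scaled.

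**Figure D3:**
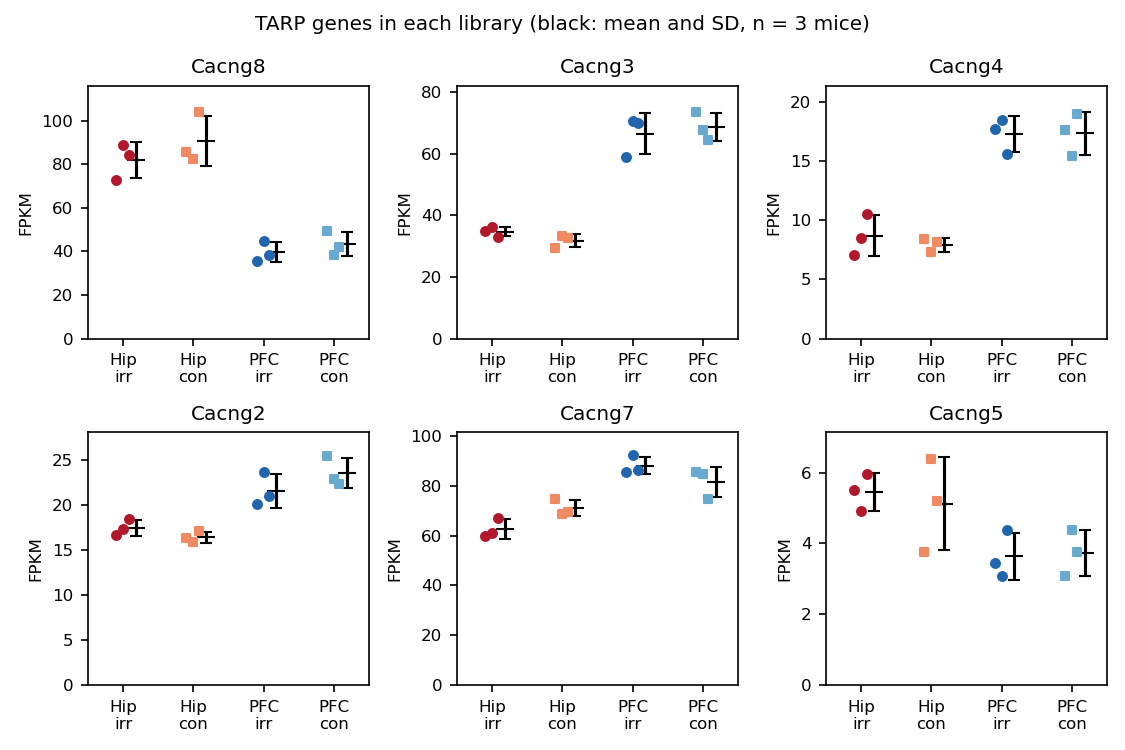
Level in FPKM of the 6 expressed TARP genes in each library, by region (Hip, hippocampus; PFC, prefrontal cortex) and treatment (irr, irradiated; con, control), with mean and SD of 3 mice in black. Cacng8 is higher in hippocampus at 72.8 FPKM or more in each library, whereas Cacng3 and Cacng4 are lower there in every library.

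Cacng7 and Cacng5 are TARPs of a second type, and they differed from each other in direction. Cacng7 (chromosome 7, 3332955 to 3368221), the highest gamma gene in prefrontal cortex by group means and below Cacng8 in hippocampus, had 59.9, 61 and 67.1 FPKM in hippocampus, against 85.7, 92.2 and 86.4 FPKM in prefrontal cortex of irradiated mice, and 74.6, 68.8 and 69.3 FPKM, against 85.4, 84.9 and 74.7 FPKM, in controls. The hippocampal libraries lay below the cortical ones in both treatments, in controls with the nearest libraries at 74.6 and 74.7 FPKM. Cacng7 passed in irradiated mice, at -0.49 ± 0.06 (adjusted p = 0.000996), and missed in controls, at -0.20 ± 0.07 (adjusted p = 0.0632). Cacng5 (chromosome 11, 107874605 to 107915055) had 5.5, 4.91 and 5.97 FPKM in hippocampus, against 3.46, 3.09 and 4.37 FPKM in prefrontal cortex of irradiated mice, and 3.77, 6.39 and 5.21 FPKM, against 3.08, 4.37 and 3.77 FPKM, in controls. Only the irradiated libraries kept the regions apart, at 0.48 ± 0.12 (adjusted p = 0.0166) against 0.36 ± 0.16 (adjusted p = 0.135) in controls. The Cacng5 call was lost without hippocampal library 1 or 3 or cortical library 1 of the irradiated mice, at adjusted p-values of 0.0551 to 0.0586, and with a minimum mean of 5 FPKM, which leaves it untested. With the mouse as a block both genes were called in controls too. Cacng7 was also called in controls with equal totals, with the length trend removed, in 1 fit over 12 libraries and without cortical library 3. Cacng5 was also called in controls without hippocampal library 1. The change of the region difference with irradiation was -0.29 ± 0.10 for Cacng7 and 0.13 ± 0.22 for Cacng5, each with an adjusted p of 1.

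The gamma genes lie in 2 runs on the mm10 genome. Cacng7, Cacng8 and Cacng6 follow each other on the forward strand of chromosome 7 with gaps of 22461 and 8546 bases. Cacng1, Cacng4 and Cacng5 follow each other on the reverse strand of chromosome 11 with gaps of 15834 and 80047 bases. In irradiated mice the neighbours Cacng7 and Cacng8 passed in opposite directions, as did Cacng4 and Cacng5. Cacng6 and Cacng1, 1 in each run, stayed below 1 FPKM in all libraries. The promoters of the 2 genes of the second TARP type are shown because these 2 members of 1 type passed in opposite directions in irradiated mice, and they are credited to RefSeq on GRCm38.p6. Each window runs from 250 bases before to 50 bases after a RefSeq start of the gene, in the direction of the gene. For Cacng7 the RefSeq start lies 130 bases upstream of the GENCODE start given above, so its window ends before that start. For Cacng5 the RefSeq start of the printed window and the GENCODE start are the same. Another RefSeq start listed for Cacng5 lies 3693 bases away, and its window held 5 CG pairs and 0 GC boxes. Capitals mark the GC box GGGCGG on either strand.
Cacng7, chr7:3332575-3332874, forward strand: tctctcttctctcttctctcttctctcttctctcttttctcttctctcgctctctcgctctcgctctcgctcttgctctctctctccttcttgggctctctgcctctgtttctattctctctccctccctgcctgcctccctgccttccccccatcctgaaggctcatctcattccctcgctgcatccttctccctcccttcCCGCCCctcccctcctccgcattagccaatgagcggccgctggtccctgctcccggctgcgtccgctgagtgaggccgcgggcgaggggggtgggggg
Cacng5, chr11:107915006-107915305, reverse strand: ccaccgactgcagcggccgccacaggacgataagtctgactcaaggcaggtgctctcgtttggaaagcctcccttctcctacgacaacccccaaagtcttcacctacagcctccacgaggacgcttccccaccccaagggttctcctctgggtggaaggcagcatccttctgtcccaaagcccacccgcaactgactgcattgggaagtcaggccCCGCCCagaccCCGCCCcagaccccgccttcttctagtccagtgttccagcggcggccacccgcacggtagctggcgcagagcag
The Cacng7 window held 15 CG pairs and 1 GC box and the printed Cacng5 window 17 CG pairs and 2 GC boxes. Of all 32851 promoter windows of that length 35.7% held a GC box, and the median window held 7 CG pairs. Neither window held the E-box CAGCTG, which 16.3% of all windows held. 28 of 38 members had a window in the table. A further condition for printing was a RefSeq start within 200 bases of the GENCODE start. Those listed for Cacng8, Cacng2 and Cacng3 did not meet it. Other members, such as Cacna1i and Scn1a, met it and were not printed.

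Partner genes of the channels were counted from lists chosen with earlier results of these data known. Of 14 sodium channel partners, 3 passed as higher and 3 as lower in hippocampus in irradiated mice, and 3 as higher and 2 as lower in controls. Among all genes tested, 13.9% passed as higher and 15.3% as lower in irradiated mice, and 15.7% and 14.6% in controls. Fgf13 and Fgf12, relatives of growth factors that bind the sodium pore from inside, went apart. Fgf13 averaged 90.9 ± 7.06 FPKM in hippocampus, against 58.4 ± 1.16 FPKM in prefrontal cortex of irradiated mice, at 0.63 ± 0.07 (adjusted p = 0.000349), and Fgf12 averaged 23.6 ± 0.522 and 34.4 ± 1.34 FPKM, at -0.52 ± 0.05 (adjusted p = 0.000304). In controls they differed by 0.66 ± 0.07 (adjusted p = 0.000152) and -0.59 ± 0.08 (adjusted p = 0.000682). Of the calcium channel partners, 2 of 19 passed as higher and 7 as lower in irradiated mice, and 4 of 20 as higher and 8 as lower in controls. Stx1a, the syntaxin that docks vesicles at release-site channels, averaged 45.3 ± 3.78 FPKM in hippocampus, against 136 ± 12.4 FPKM in prefrontal cortex of irradiated mice, at -1.57 ± 0.09 (adjusted p = 1.37e-05), and 44.1 ± 3.4 and 136 ± 14.4 FPKM in controls, at -1.60 ± 0.09 (adjusted p = 2.48e-06). Kcnn2, a potassium channel opened by calcium, was higher by 0.99 ± 0.08 (adjusted p = 6.19e-05) and 1.04 ± 0.08 (adjusted p = 1.8e-05).

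The AMPA receptor partners of the TARPs differed in both directions. Of 12, 3 passed as higher and 6 as lower in hippocampus in irradiated mice, and 3 as higher and 5 as lower in controls. The shares of all genes tested were 13.9% and 15.3% in irradiated mice, and 15.7% and 14.6% in controls. Shisa6, an auxiliary protein that keeps AMPA receptors at synapses, averaged 24.3 ± 1.16 FPKM in hippocampus, against 2.2 ± 0.118 FPKM in prefrontal cortex of irradiated mice, at 2.99 ± 0.07 (adjusted p = 3.79e-07), and 23.3 ± 4.49 and 2.49 ± 0.246 FPKM in controls, at 2.79 ± 0.13 (adjusted p = 8.42e-07). Gria1, the AMPA receptor subunit of hippocampal plasticity, averaged 184 ± 11.6 and 82.5 ± 5.73 FPKM in irradiated mice, at 1.15 ± 0.07 (adjusted p = 2.86e-05), and 191 ± 15.1 and 80 ± 3.89 FPKM in controls, at 1.24 ± 0.07 (adjusted p = 3.29e-06). Both were thus higher in hippocampus, as Cacng8 was. Gsg1l, an auxiliary subunit with an opposing effect on AMPA currents, was lower by -1.58 ± 0.10 (adjusted p = 2.28e-05) and -1.94 ± 0.12 (adjusted p = 4.63e-06), all errors of levels being SD of n = 3 and of differences SE.

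The second question was whether abdominal irradiation was followed by a difference in these genes. In hippocampus 0 of 27 tested members passed, where 0% of all 12947 genes tested passed. At an unadjusted p under 0.05 stood 2 members as higher and 2 as lower, against 4.70% and 5.81% of all genes. In prefrontal cortex 0 of 28 members passed, where 1 gene, or 0.00786% of all 12729 genes tested, passed. At an unadjusted p under 0.05 stood 1 member as higher and 0 as lower, against 2.44% and 4.79% of all genes. Members whose 3 irradiated libraries all lay above or all below the 3 control libraries were 1 higher and 2 lower in hippocampus, against 7.41% and 8.16% of all genes, and 4 higher and 0 lower in prefrontal cortex, against 6.25% and 7.44%.

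**Figure D4:**
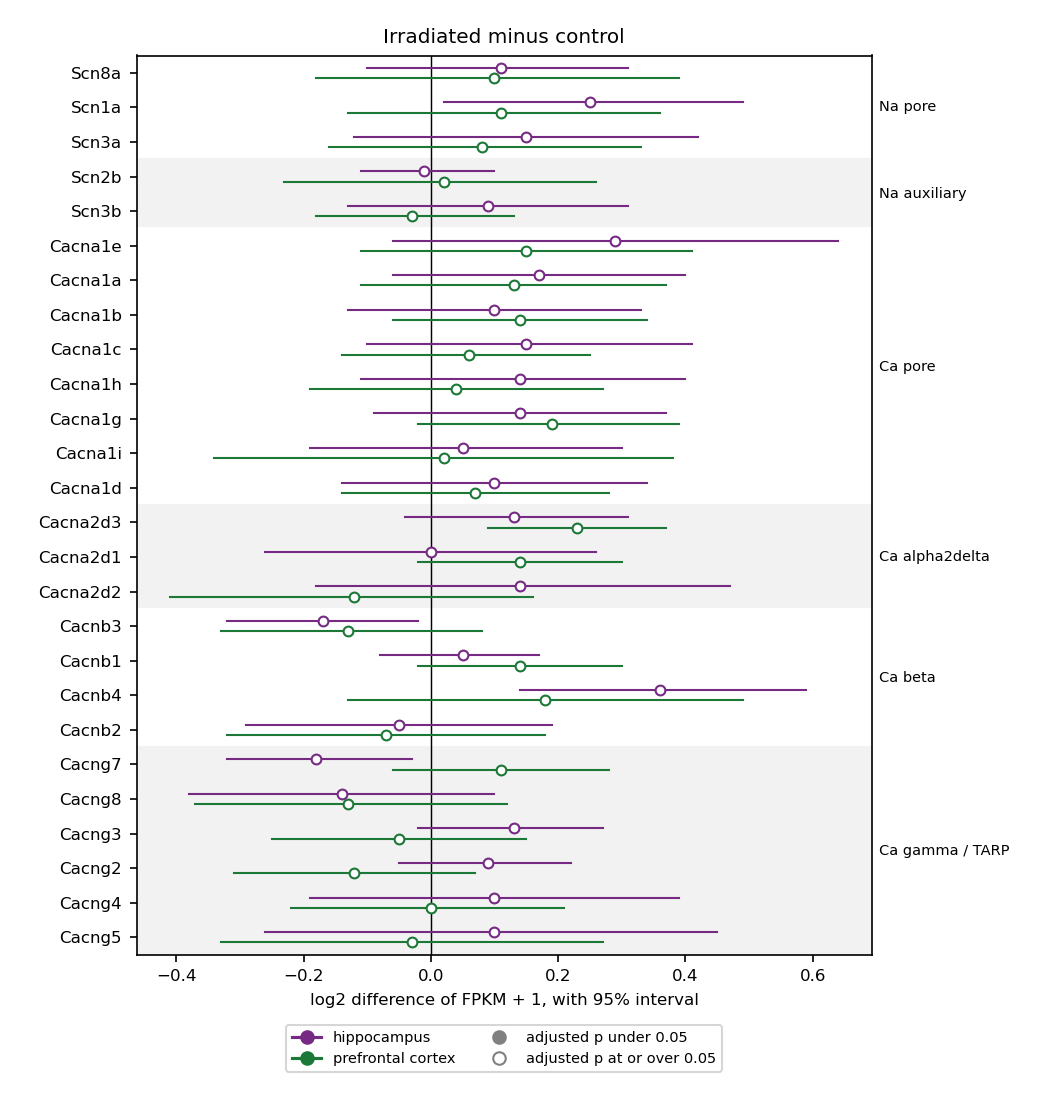
Log2 difference of FPKM + 1, irradiated minus control, with its 95% interval for 26 of the 27 channel genes that averaged 1 FPKM or more over 12 libraries, in hippocampus (purple) and prefrontal cortex (green). All points are open, since no member passed an adjusted p of 0.05, and the 8 calcium pores lie right of 0 in both regions.

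In hippocampus the member with the smallest p was Cacnb4, a calcium beta subunit linked to epilepsy and ataxia in mice. It averaged 26.2 ± 2.79 FPKM in irradiated mice and 20.1 ± 2.07 FPKM in controls (SD, n = 3 each), and its lowest irradiated library, at 23 FPKM, stood above its highest control, at 21.6 FPKM. The log2 difference was 0.36 ± 0.10 (adjusted p = 0.475 with limma). Cacng7 stood at 62.7 ± 3.85 FPKM in irradiated, against 70.9 ± 3.24 FPKM in control hippocampus, and Cacnb3 at 69 ± 5.52 and 77.7 ± 2.18 FPKM. For both of these genes every irradiated library lay below every control one, at -0.18 ± 0.06 and -0.17 ± 0.07 (adjusted p = 0.475 each). Scn1a averaged 16.6 ± 1.51 FPKM in irradiated, against 13.8 ± 1.80 FPKM in control hippocampus, at 0.25 ± 0.10 (adjusted p = 0.475), with overlapping libraries. Cacng3, Cacna1e, Cacng8 and Cacnb2 overlapped as well, at 0.13 ± 0.06, 0.29 ± 0.15, -0.14 ± 0.10 and -0.05 ± 0.10, and their adjusted p-values lay between 0.517 and 0.856. Cacnb2 had 14.6, 17.4 and 14.9 FPKM in irradiated and 14.5, 15.5 and 18.8 FPKM in control hippocampus. With equal totals Cacnb2 was at 0.03, and with 1 library left out between -0.13 and 0.05.

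In prefrontal cortex the smallest p belonged to Cacna2d3. Its irradiated libraries, at 37.6, 38.1 and 37.1 FPKM, all stood above the controls, at 31.6, 31.6 and 32.5 FPKM, and the log2 difference was 0.23 ± 0.06 (adjusted p = 0.462 with limma). Cacna2d3 overlaps Lrtm1 on the opposite strand, and in hippocampus its difference was 0.13 ± 0.08 (adjusted p = 0.532). Cacna1g had 9.91, 11.5 and 9.36 FPKM in irradiated and 9.2, 8.94 and 8.5 FPKM in control cortex, and Cacna2d1 33.3, 34.4 and 32 against 31.4, 30.7 and 28.1 FPKM. These 2 genes also had all irradiated libraries above the controls, at 0.19 ± 0.09 (adjusted p = 0.716) and 0.14 ± 0.07 (adjusted p = 0.729). Cacnb1 had 54.5, 61.1 and 57.3 FPKM in irradiated and 54.8, 50.5 and 51.6 FPKM in control cortex, overlapping at its lowest irradiated library, at 0.14 ± 0.07 (adjusted p = 0.747). On the lower side, Cacng2, Cacnb3 and Cacng8 differed by -0.12 ± 0.09, -0.13 ± 0.09 and -0.13 ± 0.11, all with overlapping libraries and adjusted p-values between 0.821 and 0.838.

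Although no member passed, the pore genes lay mostly on 1 side. All 11 tested pore genes had a positive difference in hippocampus, with a median of 0.14, where 47.0% of all genes were positive. In prefrontal cortex 11 of 12 were positive, with a median of 0.09, where 51.2% of all genes were positive. Auxiliary genes were positive in 9 of 16 in hippocampus and 6 of 16 in prefrontal cortex, with medians of 0.07 and -0.02. Of 14 sodium channel partners 12 were positive in hippocampus and 10 in prefrontal cortex, and 0 passed, as did 0 of the calcium channel partners and 0 of the AMPA receptor partners.

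Pore transcripts are long, and the medians over all long transcripts had the same sign. Genes with a transcript over 8 kb had a median difference of 0.11 in hippocampus and 0.06 in prefrontal cortex, and genes with transcripts under 2 kb -0.09 and -0.08. The members over 8 kb, which are the tested pores except Cacna1a, with Cacnb4, had medians of 0.14 and 0.09. After the trend with transcript length was removed from each library, 6 of 11 pore genes were positive in hippocampus, with a median of 0.04, and 8 of 12 in prefrontal cortex, with a median of 0.03. With libraries rescaled to equal totals, all genes shifted to a median of 0.07 in both regions and the pore medians were 0.22 and 0.16.

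The shift of the pore genes was uneven between libraries. Against the mean of its region, the median pore gene lay at 0.06, 0.21 and -0.05 in hippocampus of irradiated mice 1, 2 and 3, and at -0.19, -0.10 and 0.09 in hippocampus of controls. In prefrontal cortex it lay at -0.05, 0.19 and -0.02 in irradiated mice and at -0.02, -0.04 and -0.11 in controls. Irradiated mouse 2 was the highest library of its region for 11 of 11 pore genes in hippocampus and 9 of 11 in prefrontal cortex, and control 1 the lowest for 9 of 11 in hippocampus. Without the hippocampal library of irradiated mouse 2 the pore median was 0.06, and without that of control 1 it was 0.07. Without the cortical library of irradiated mouse 2 it was 0.01, with 7 of 12 pore genes positive, and it was 0.14 without either of the other irradiated cortical libraries. That mouse's hippocampal library had a summed choroid plexus level of 61.6 FPKM, against 3091 and 4595 FPKM in the other irradiated hippocampi and 3703 to 5792 FPKM in controls, and its cortical library a summed GABA neuron level of 656 FPKM, against 814 and 771 FPKM in irradiated and 738 to 806 FPKM in control cortex. The part of these in the shift was not tested.

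**Figure D5:**
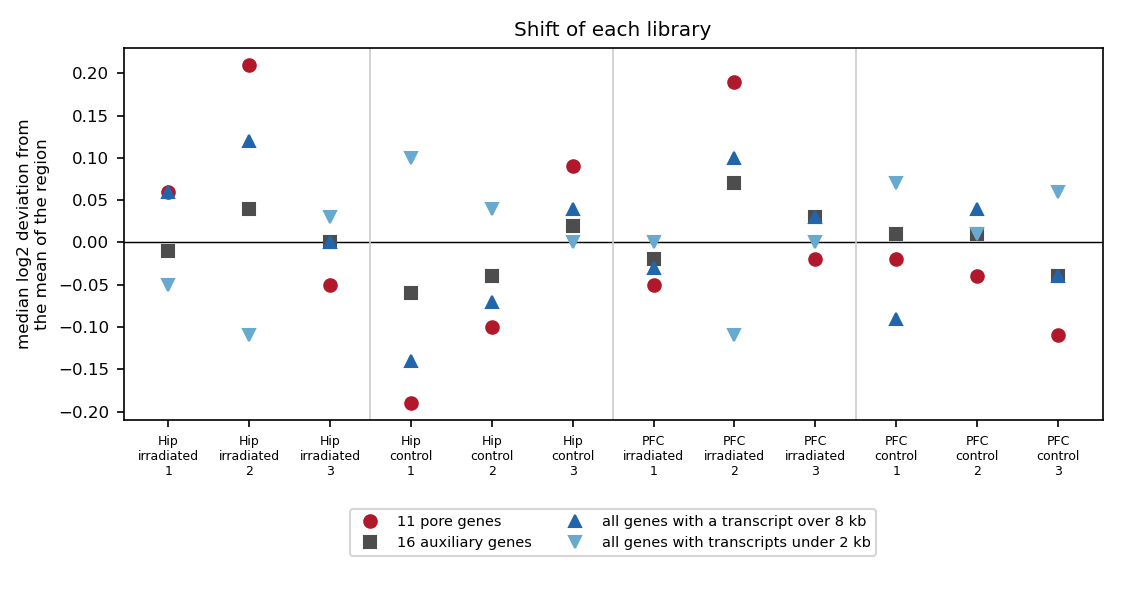
Median log2 deviation of each library from the mean of its region (Hip, hippocampus; PFC, prefrontal cortex), for the 11 pore genes, the 16 auxiliary genes, all genes with a transcript over 8 kb and all genes with transcripts under 2 kb. In both libraries of irradiated mouse 2 the pore genes lie highest, at 0.21 and 0.19, with long genes above and short genes below 0.

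In hippocampus the sums of some marker lists did not overlap between the treatments, among them those of endothelium and oligodendrocytes. The sum of 4 endothelial markers lay between 45.2 and 52.3 FPKM in irradiated mice and between 20 and 29.6 FPKM in controls, and the sum of 5 oligodendrocyte markers between 1828 and 1956 FPKM and between 2018 and 2498 FPKM. In prefrontal cortex these sums were 53 to 63.2 FPKM in irradiated and 43.6 to 46.1 FPKM in control mice, and 1263 to 1409 and 1494 to 1633 FPKM. The sum of 7 cortical layer markers was also apart in hippocampus, at 60.6 to 71.3 FPKM in irradiated mice and 54.6 to 60 FPKM in controls. Microglia markers summed to 73.5 to 76.6 FPKM in irradiated and 80.7 to 83.2 FPKM in control hippocampus. Smooth muscle and pericyte markers summed to 45.9 to 61.4 and 29.4 to 39.3 FPKM there. In prefrontal cortex the sums of these last lists overlapped. None of the markers of these lists was at 0 in any group, 0 of them passed in either region, and their part in the channel differences was not tested. The 8 neuron markers summed to 2530 to 2697 FPKM in irradiated and 2499 to 2644 FPKM in control hippocampus, with a median difference of 0.01.

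The last comparison asked whether the irradiation difference itself differed between the regions, as the hippocampal minus the cortical difference over all 12 libraries. This fit took no block, so the 2 libraries of a mouse entered as separate. Of 27 members 0 passed, where 0% of all 12894 genes tested passed, and 1 member stood at an unadjusted p under 0.05, against 3.27% of all genes. That member was Cacng7, at -0.29 ± 0.10 (adjusted p = 1 with limma). Its irradiated libraries lay below all controls in hippocampus, by -0.18 ± 0.06, and above all controls in prefrontal cortex, by 0.11 ± 0.08. Cacng2 and Cacng3 followed, at 0.20 ± 0.10 and 0.18 ± 0.11 (adjusted p = 1 each). With the mouse as a block 0 of 27 members passed, and the smallest adjusted p of a member was 0.797 with limma. The median over the 27 members was 0.03, against -0.01 over all genes, and it ran from -0.03 to 0.12 with 1 library left out. It was -0.03 without the hippocampal library of irradiated mouse 2 and without the cortical library of irradiated mouse 3, -0.02 without the hippocampal library of control 1, and 0 without the cortical library of irradiated mouse 1. Without the hippocampal library of control 3 it was 0.12, and without the cortical library of irradiated mouse 2 it was 0.09.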

How the data were processed

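The authors deposited 1 table per library, with gene symbols and 1 value per gene that was taken as FPKM made by the authors from aligned fragments. The tables name no unit, but the values are not whole numbers and sum to between 381417 and 435534. The submitters' processing notes name TopHat and mm10; no version, counting tool or use of strand is stated in the sources used here. RNA was extracted with Trizol and libraries made with a strand-marking NEBNext Ultra II kit, and all libraries carry 1 batch label, per the labels. Since FPKM are scaled to the library, abundant genes that change move all others, and values of genes that overlap on opposite strands may share fragments. Depth was estimated from low values of genes with 1 transcript, each taken as 1 fragment, as the commonest result within a range fixed beforehand. It was about 15.5 to 18.6 M fragments per library, which gives no counting error per gene. The estimate rests on 26 to 61 of 354 to 390 values per library.

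Genes that averaged 1 FPKM or more over the fitted libraries were tested on log2(FPKM + 1), two-sided, with limma-trend (limma 3.58.1, R 4.3.3), and p-values were Benjamini-Hochberg adjusted over all genes tested. A log2 difference on this scale understates changes of low genes. The procedure was tested on simulated data. Groups follow the titles; replicates are separate mice. 22814 of 23183 symbols matched GENCODE M21, used for positions and transcript lengths. Alternatives were a pseudocount of 0.1, no filter, a minimum of 5 FPKM, 2 rescalings, the length trend removed (a lowess fit of each library with a span of 0.3), robust moderation, 1 fit over 12 libraries, a replicate block and each library left out. The 2 regions of a mouse pair the region comparisons and the difference of the irradiation effect, per the titles. The main fits took no block. Deviations of same-mouse libraries correlated at 0.17, 0.26 and 0.30 in irradiated and 0.29, -0.01 and 0.05 in control mice.

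The members and gene lists were chosen with earlier results of these data known. Values in every library are given for the up to 6 members per direction with the largest differences among those that passed between regions, the 4 per direction with the smallest p after irradiation, the 3 with the smallest p for the difference between regions, and the highest of each class. Scn2b, Scn3a, the genes of low level, and the region results of Cacnb1 and of other members outside this rule were added after values were seen. A few members count in the totals and medians but are not reported here by name, nor shown in the figures.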

Additional observations from a re-analysis of the deposited data

Results flagged for a closer look

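The TARP gene Cacng7 was flagged because the irradiated and control libraries separated in both regions, in opposite directions. That separation was the rule by which it was picked, and the share of all genes that separate in this way was not counted. Its hippocampal libraries had 59.9, 61 and 67.1 FPKM in irradiated mice, all below 74.6, 68.8 and 69.3 FPKM in controls. Its cortical libraries had 85.7, 92.2 and 86.4 FPKM in irradiated mice, all above 85.4, 84.9 and 74.7 FPKM in controls. The nearest cortical libraries stood at 85.7 and 85.4 FPKM, so the separation there was narrow. The difference between the effects was -0.29 ± 0.10 (SE, adjusted p = 1 with limma over 12894 genes), and it lay between -0.34 and -0.22 under all alternatives run.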

How the results depend on the processing

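With the mouse as a replicate block, the members called higher in hippocampus numbered 7 in irradiated and 5 in control mice, against 4 and 3 without it, and no irradiation or difference call was gained. Leaving out 1 library gave 2 to 6 higher and 9 to 12 lower calls in irradiated mice, the fewest higher without cortical library 1, and 3 to 4 higher and 7 to 13 lower calls in controls, the fewest lower without hippocampal library 2. Other settings kept these counts within 1.5 times. After irradiation 0 members were called in either region, or for the difference, under every setting run. In hippocampus Cacnb2 turned to 0.03 with equal totals and ranged from -0.13 to 0.05 with 1 library left out; the cause was not tested. Over all settings run, 6 of the 17 region calls in irradiated mice were lost at least once, those of Scn1a, Cacna1h, Cacna2d2, Cacna2d3, Cacng2 and Cacng5, and 4 of the 14 in controls, those of Scn1a, Scn2b, Cacna1i and Cacnb1. With 3 mice per group, the 95% interval of the irradiation difference excluded 0 for 4 of 27 members in hippocampus and 1 of 28 in prefrontal cortex. At the matching unadjusted p under 0.05 stood 4.70% of all genes as higher and 5.81% as lower in hippocampus. In prefrontal cortex these shares were 2.44% and 4.79%. The same numbers in irradiated and control mice mark different animals, so no pairing applies to the irradiation comparisons; their block changed no call.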
